A study of Mus musculus with 6 samples.

Results

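Genes of the TGF-beta, BMP and SMAD family were examined in H3K27ac chromatin immunoprecipitation sequencing (ChIP-seq) of mouse quadriceps. Members were all listed H3K27ac peaks whose assigned gene name began with Bmp and a digit, Bmpr, Smad, Tgfb1 to Tgfb3, Tgfbr, Gdf, Acvr1, Acvr2, Inhb or Ltbp. The rule found 257 of 46988 peaks in control mice and 186 of 40721 peaks in detrained mice, which carried the names of 42 genes in all. Of the peaks shared by both groups, 116 of 26432 pairs bore a member name in both tables, in 37 genes. A peak was named for the gene with the nearest start site, so a name did not show that the peak acted on that gene.

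All mice were wild type C57BL/6 males, 8 weeks old when the experiment began. Control mice stayed sedentary, and detrained mice ran voluntarily on wheels for 4 weeks and were then rested without wheels for 72 hours before harvest. Each group had 2 H3K27ac libraries, each from the quadriceps of a single animal, and 1 input library; the strain labels of the inputs read C57BL/7 and C57BL/8. The control libraries were named C2 and C3 and the detrained libraries Ex1 and Ex2.

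Ligands of this family (TGF-betas, BMPs, GDFs and activins) bind paired type I and type II serine/threonine kinase receptors, which phosphorylate receptor SMADs that enter the nucleus with SMAD4, while SMAD6 and SMAD7 restrain the signal. LTBPs hold TGF-beta in its latent form in the extracellular matrix. In skeletal muscle BMP signaling favors growth of the fiber and myostatin and activin signaling limits it, and TGF-beta is known for its part in fibrosis. H3K27ac marks active promoters and enhancers.

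Signal was expressed as H3K27ac tags per kb of the called peak per 10000000 tags of the library, with 0.5 tags added, and is called density here. The libraries held between 20805019 and 22400894 tags, and the depth of the input was 10812470 tags for control and 21298438 for detrained mice. The libraries of a group had a Spearman correlation of 0.987 across peaks in each table. Of 10 skeletal muscle markers, 9 had a peak in each table, while 3 of 4 liver genes, Alb, Apob and Ttr, had none. In bulk muscle, fewer cells of a type and less H3K27ac per cell cannot be told apart. The tables of the groups were normalized separately, so no test between groups was made; with 2 libraries against 2 an exact permutation test could not have gone below p = 0.33. A pair of peaks was instead called apart when the 2 detrained values were both above, or both below, each control value, and its groups overlapping otherwise. Both are given for density per kb unless the signal per peak is named.

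The promoters are shown first. Of the pairs of highest density in each of the 37 genes, 14 lay within 1 kb of a start. Of 42 member genes, 32 had a RefSeq promoter (build GRCm38.p6, which is mm10) and 23 had one within a peak of both groups, with 27 promoters in all. A further 4 promoters lay in a control peak alone, those of Bmp4, Gdf11, Inhbb and a second start of Ltbp1, and none lay in a detrained peak alone. The following stretches are the 250 bases before the start of 3 receptor genes, with GGCGCC, a GC-rich SMAD motif, in capitals.

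Bmpr1a (chr14:34502547-34502796, minus strand): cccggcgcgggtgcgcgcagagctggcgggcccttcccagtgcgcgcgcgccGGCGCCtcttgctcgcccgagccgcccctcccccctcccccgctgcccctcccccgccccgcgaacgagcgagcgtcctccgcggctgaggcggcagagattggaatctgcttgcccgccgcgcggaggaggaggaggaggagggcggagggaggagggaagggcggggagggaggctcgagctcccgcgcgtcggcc
Bmpr2 (chr1:59764029-59764278, plus strand): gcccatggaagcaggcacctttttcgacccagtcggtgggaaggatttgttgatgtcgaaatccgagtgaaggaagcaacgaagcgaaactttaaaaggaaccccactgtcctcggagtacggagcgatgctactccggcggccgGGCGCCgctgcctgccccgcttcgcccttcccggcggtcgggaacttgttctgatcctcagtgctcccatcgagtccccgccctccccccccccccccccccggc
Tgfbr1 (chr4:47352972-47353221, plus strand): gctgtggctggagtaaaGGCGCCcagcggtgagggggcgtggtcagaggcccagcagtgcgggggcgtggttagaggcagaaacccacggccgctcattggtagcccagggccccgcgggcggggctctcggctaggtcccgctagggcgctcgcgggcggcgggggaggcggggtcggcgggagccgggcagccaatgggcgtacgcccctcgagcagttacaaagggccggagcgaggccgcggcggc

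GGCGCC, which reads the same on both strands, was present in 11 of the 27 acetylated member promoters, in 9 of the 23 genes (Bmpr1a, Bmpr2, Tgfbr1, Acvr1b, Smad5, Gdf1, Ltbp4, Tgfbrap1 and Bmp2k). This was 40.7% of these 300-base promoters, compared to 21.4% of all 12463 RefSeq promoters within peaks of both groups and 11.9% of all 32851 promoters. The member promoters also had a higher median GC content, 67.7%, against 61.0% and 52.7%, and the part of GC content in the motif count was not tested. Promoters of one gene can overlap, as those of Ltbp4 and Smad5 did.

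The palindromic SMAD motif GTCTAGAC was found once among these promoters, across the annotated start of Smad6, the inhibitor of BMP signaling. In 1000-base windows at the centers of shared peaks it occurred at 1 of 116 member pairs (0.862%), an intronic peak 14.96 kb into Acvr2b, compared to 0.836% of all 26432 pairs. Both sites are shown in 30 bases, with the palindrome in capitals.

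Smad6 (chr9:64022045-64022074, minus strand): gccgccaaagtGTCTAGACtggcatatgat
Acvr2b (chr9:119416811-119416840, plus strand): ggtttctggagGTCTAGACttcagcgtcga

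In the same windows the E-box CAGCTG was in 49.1% of member pairs and 47.9% of all pairs, the AP-1 motif TGANTCA in 24.1% and 27.1%, and GGCGCC in 14.7% and 19.0%. No motif contains another, and each was read on both strands.

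Member genes were marked by several peaks spread over and beyond the gene. The median was 4 peaks per member gene in control mice and 3 in detrained mice, and the median over all genes was 2 in each table. Peaks at promoters made up 3.89% of the control members (10 of 257, exact 95% interval 1.88% to 7.04%) and 11.2% of all control peaks. In detrained mice the shares were 4.30% (8 of 186, 1.87% to 8.30%) and 12.6%. Introns held 64.2% of the control members and 50.8% of all control peaks. The median distance from the start site was 34.9 kb for control members, compared to 16.3 kb for all control peaks. These intervals cover counting error only. Of the control members 176 lay inside the gene they were named for, 15 inside another gene and 66 between genes.

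The number of peaks was lower in the detrained table for 25 of the 42 genes, equal for 14 and higher for 3 (Inhba, Acvr1b and Ltbp4). Control members held 0.547% of their table and detrained members 0.457%. By role the numbers in control and detrained mice were 55 and 39 for ligands, 116 and 84 for receptors, 50 and 39 for SMADs, and 24 and 17 for LTBPs. The control table was longer as a whole and its input was shallower, and their part in these numbers was not tested. When the control table was limited to its 40721 peaks of highest density, it held 214 members. With only the stricter peaks, at least 4-fold over input, 112 control and 109 detrained members remained.

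**Figure D1:**
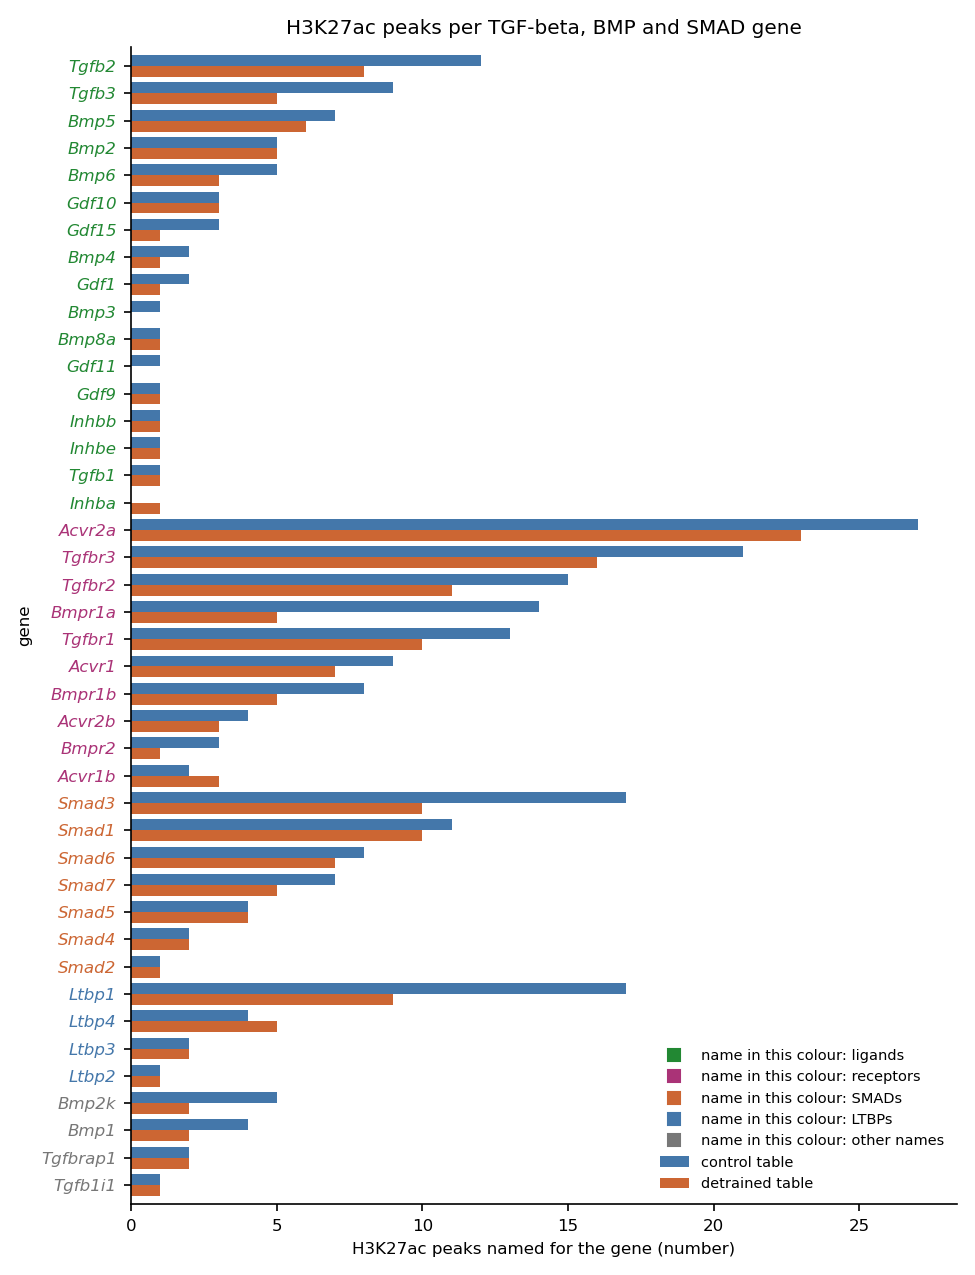
Number of H3K27ac peaks (horizontal axis) named for each of the 42 genes (vertical axis), in the control table (blue bars) and the detrained table (orange bars), with gene names colored by role. Acvr2a and Tgfbr3 had the most peaks in both tables, 27 and 21 in control and 23 and 16 in detrained mice.

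Peaks found in one table alone were mostly weak. Of the control members 97 (37.7%) overlapped no detrained peak, where 27.9% of all control peaks did not, and they held a median of 57 tags compared to 344 tags for the overlapping members. Of the detrained members 29 (15.6%) overlapped no control peak, where 18.0% of all detrained peaks did not, with a median of 72 tags. These tags are the sum of both libraries of a group.

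The strongest control members without a counterpart were an intronic peak of Gdf15, a stress-induced cytokine, with 456 tags, one 33.6 kb into Bmpr2 with 278 tags, and one 68.7 kb into Ltbp1 with 271 tags. The Gdf15 peak, 1.67 kb from the start, had a density of 46.8 in C2 and 43.4 in C3. The strongest detrained members without a counterpart had 352 and 172 tags at -195 and -333 kb from the Acvr2a start and 144 tags at a Tgfb3-named site inside Ttll5. Bmp3 and Gdf11 had a peak in the control table alone, with 86 and 138 tags, and Inhba, the activin A subunit, in the detrained table alone, with 55 tags. A few names also switched at shared starts. A peak with 2242 tags at the Gdf1 start in control mice was named for Cers1 in detrained mice, and the peak at the Acvr1 start, with 1451 tags in detrained mice, was named for Upp2 in control mice.

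Among the ligands Tgfb2 and Tgfb3 had the strongest shared peaks. Of 13 ligand genes with a shared pair, 2 had a strongest pair above the 75th percentile of all shared pairs, and the median percentile was 46.1. At Tgfb2, 2.48 kb into the gene, density was 80.5 (C2), 80.8 (C3), 87.8 (Ex1) and 84.2 (Ex2). Both detrained libraries were the higher, by a log2 ratio of 0.093 (SD within groups 0.030), but per peak, without dividing by its length, the log2 ratio was -0.024. At Tgfb3, 0.644 kb from the start, density was 77.8, 93.3, 75.02 and 70.4 in the same order. Here both detrained libraries were the lower (log2 ratio -0.23, SD 0.14), and per peak the ratio was 0.13. Inhbe, which encodes an inhibin beta subunit, came next. Its peak at -2.79 kb had 62.6, 62.5, 53.2 and 46.7, lower in both detrained libraries per kb (-0.33, SD 0.095) and higher in both per peak (0.41). Tgfb1 had a single peak per table, 1.29 kb into the gene, with 48.5, 45.7, 56.7 and 47.4, and its groups overlapped. The BMP ligands were weaker. The strongest pairs of Bmp2, Bmp4, Bmp5, Bmp6 and Bmp8a ranged from 20.8 to 41.9 in the control libraries and from 23.5 to 39.2 in the detrained libraries.

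The receptors were marked more strongly at their strongest pairs. Of 10 receptor genes 7 had a strongest pair above the 75th percentile, and the median percentile was 91.1. Over all pairs of a role the median percentile was 51.2 for the 48 receptor pairs and 32.9 for the 25 ligand pairs. The promoter of Bmpr1a, a type I BMP receptor, had a density of 108 (C2), 131 (C3), 108 (Ex1) and 106 (Ex2), and its groups were not apart per kb (log2 ratio -0.15, SD 0.14). Bmpr2, its type II partner, had 89.8, 104, 113 and 102 at 0.691 kb, and its groups overlapped (0.15, SD 0.13). The Tgfbr1 promoter had 67.3, 65.8, 61.3 and 63.1. Both of its detrained libraries were slightly lower, by a log2 ratio of -0.098 (SD 0.027) per kb and -0.026 per peak. Tgfbr3, the betaglycan coreceptor, had its strongest shared pair deep in the gene, 122 kb from the start, with 80.4, 82.0, 84.3 and 83.0.

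Among the activin receptors the starts of Acvr1b and Acvr2b were strongly marked. Acvr1b, a type I receptor, had 85.4 (C2), 101 (C3), 83.5 (Ex1) and 85.1 (Ex2) at 2.17 kb, with both detrained libraries lower by a narrow margin (-0.14, SD 0.12). Acvr2b had 92.9, 94.7, 80.6 and 92.5 at 0.288 kb, also lower in both (-0.12, SD 0.10), and its peak was called over 1.94 kb in control and 1.28 kb in detrained mice, with -0.71 per peak. Acvr1, which binds BMPs and activins, had 40.2, 48.3, 52.8 and 41.2 at its strongest paired site, 72.4 kb into the gene, and its groups overlapped. Bmpr1b was weaker than Bmpr1a. Its pair at 43.5 kb had 33.7, 47.1, 51.6 and 55.1 and was higher in both detrained libraries per kb (0.42, SD 0.25) but not per peak (-0.23), and its pair at 0.635 kb had 35.1, 45.3, 41.8 and 39.5, with overlapping groups. Tgfbr2 had 44.9, 51.8, 43.2 and 40.0 at 13.2 kb and 39.9, 39.6, 31.0 and 31.1 at 36.7 kb, both lower in the detrained libraries per kb (-0.21 and -0.36), with -0.045 and 0.18 per peak.

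Of 7 SMAD genes, 6 had a strongest pair above the 75th percentile, each near its start. Over all 27 SMAD pairs the median percentile was 26.9. The promoter of Smad2, a TGF-beta SMAD, was the strongest SMAD pair, at the 99.0th percentile, with 129 (C2), 149 (C3), 130 (Ex1) and 107 (Ex2). The detrained values straddled those of the lower control library (log2 ratio -0.23, SD 0.17). The promoter of Smad5, a BMP SMAD, had 95.4, 98.4, 96.9 and 84.3, and its groups overlapped (-0.10, SD 0.10). The promoter of Smad4, the common partner, had 86.6, 89.3, 84.6 and 72.0, with both detrained libraries lower (-0.17, SD 0.12, and -0.092 per peak). Smad1, another BMP SMAD, had 83.3, 84.9, 97.6 and 83.4 at 0.588 kb, and Smad3 had 72.0, 70.7, 79.1 and 70.0 at 1.116 kb. Smad7, an inhibitor induced by TGF-beta, had 83.8, 104, 86.8 and 75.3 at 1.69 kb. Groups overlapped at all 3 genes. Smad6 had no one-to-one pair at its start. There, 2 control peaks with 863 and 259 tags were covered by a single detrained peak of 7.08 kb with 1228 tags.

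The strongest pairs of the LTBPs and the remaining names also lay near their starts. Ltbp1, with 70.0, 63.8, 66.2 and 52.9 at 0.246 kb, and Ltbp3, with 62.2, 56.0, 65.9 and 61.9 at 1.07 kb, had overlapping groups, although Ltbp3 was lower in both detrained libraries per peak (-0.27). Tgfbrap1, which encodes a TGF-beta receptor-associated protein, had the strongest member promoter of all, at the 99.9th percentile, with 176, 174, 154 and 150. Both detrained libraries were lower there per kb (-0.20, SD 0.022) and per peak (-0.12). Tgfb1i1, a focal adhesion protein induced by TGF-beta, had 65.1, 79.6, 61.8 and 68.0 at its promoter, and Bmp1, a procollagen protease and not a BMP ligand, had 36.9, 32.5, 35.2 and 33.5 at 1.13 kb; groups overlapped at both. Bmp2k, a kinase whose name the rule matched, had 114, 129, 87.8 and 77.5 at its promoter. Its log2 ratio was -0.55 (SD 0.13) per kb and -0.055 per peak, where the detrained peak was 6.564 kb long and the control peak 4.645 kb.

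**Figure D2:**
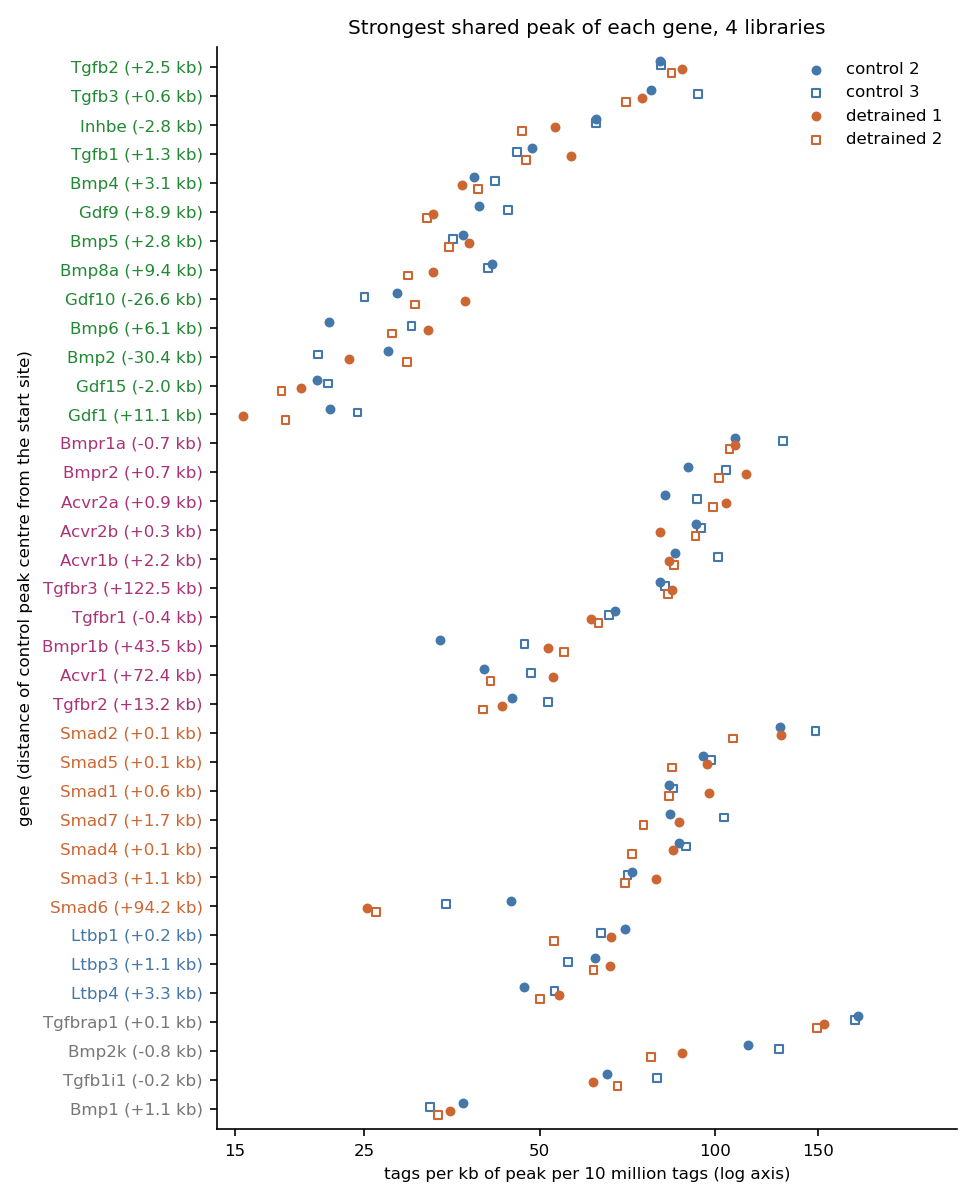
Density in each of the 4 libraries (horizontal log axis, tags per kb of peak per 10000000 tags; control in blue, detrained in orange, filled circles for the first and open squares for the second library of a group) at the strongest shared peak of 37 genes (vertical axis), with the distance of the control peak from the start. Receptor and SMAD genes sat mostly between 60 and 150 and ligands mostly below 50, and the library spread was similar to the distance between groups for most genes.

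Over all pairs 48.5% were apart per kb and 53.4% per peak. Of the 37 strongest pairs 19 were apart per kb. The other 18 had groups that were not apart per kb, and 9 of these were apart per peak. Those of Bmp5, Tgfb1, Bmpr1a, Bmpr2 and Ltbp3 were lower per peak in both detrained libraries, with log2 ratios of -0.12, -0.23, -0.21, -0.30 and -0.27. Those of Bmp1, Bmp2, Bmp6 and Acvr1 were higher, with 0.25, 0.60, 1.18 and 0.35. The detrained peak of the Bmp6 pair also overlapped another control peak, with 341 tags, which its ratio leaves out.

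Level varied with distance from the start site. The 16 member pairs within 1 kb of a start had a median density percentile of 92.2, the 21 pairs at 1 to 10 kb one of 51.0, the 61 pairs at 10 to 100 kb one of 26.5, and the 18 pairs beyond 100 kb one of 48.4. Over all pairs the medians in the same order were 77.6, 46.9, 35.9 and 32.6. Those most distant pairs belonged to 3 genes, Acvr2a, Tgfbr3 and Tgfb3.

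Acvr2a, a type II receptor for activins and myostatin, had the most peaks. Of its 27 control peaks 25 lay between genes, and 23 lay more than 100 kb upstream, the farthest at -816 kb. In detrained mice 20 of 23 peaks lay beyond 100 kb upstream, the farthest at -991 kb. Density at the peaks of Acvr2a ranged from 11.3 to 87.5 in control and from 12.4 to 102 in detrained mice, with medians of 27.1 and 29.2, and the highest in each table was at the start. That start peak had 82.2 (C2), 93.0 (C3), 104 (Ex1) and 99.1 (Ex2). Its detrained libraries were higher per kb (log2 ratio 0.22, SD 0.10) and lower per peak (-0.28).

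Tgfbr3 was marked inside the gene. Of its peaks, 20 of 21 in control and 16 of 16 in detrained mice lay within it, reaching 158 and 159 kb from the start. A control peak of 7.80 kb near the start, with 1663 tags, corresponded to 2 detrained peaks with 1256 and 386 tags. Tgfbr2, the type II TGF-beta receptor, showed the same splitting. Its longest control peak, 13.9 kb with 3205 tags, overlapped 3 detrained peaks. The other long peaks were in Ltbp4, at 11.1 kb in control and 10.8 kb in detrained mice, in Tgfbr3, at 10.3 kb in control (141 kb from the start) and at 10.04 kb in detrained mice (a different site, 159 kb from the start), and in Bmp6, at 9.83 kb in detrained mice.

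**Figure D3:**
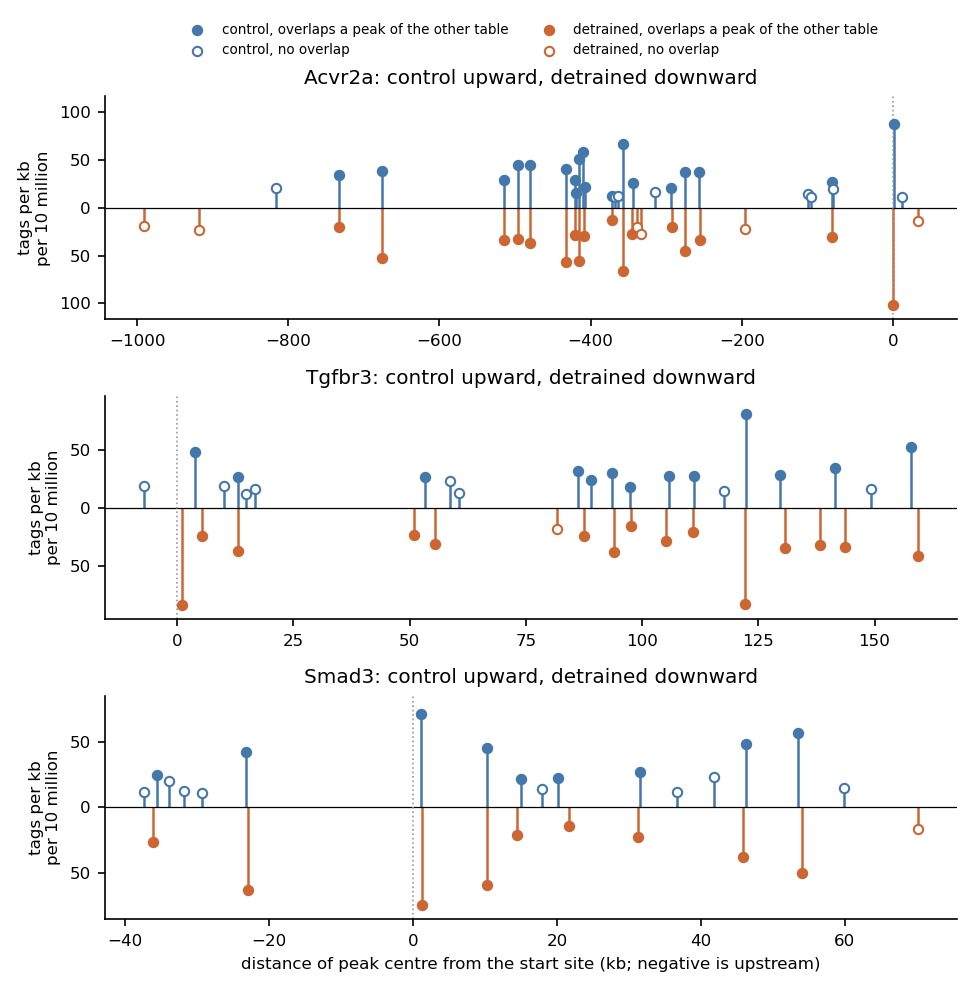
Density (vertical axis, tags per kb per 10000000 tags, pooled over the 2 libraries of a group) of every peak of Acvr2a, Tgfbr3 and Smad3 against the distance of its center from the start site (horizontal axis, kb), control drawn upward and detrained downward. Filled circles overlap a peak of the other table and open circles do not; the open circles were among the low ones in each gene.

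The comparison of groups asked whether H3K27ac at these genes differed after training and rest. Over the 116 member pairs the median log2 ratio of detrained over control was -0.020, compared to -0.026 over all 26432 pairs. The mean log2 density over member pairs was 5.23 (C2), 5.28 (C3), 5.22 (Ex1) and 5.20 (Ex2). The difference between the group means was -0.045, and that between the control libraries themselves was 0.047. The deposited log2 values per library were shrunken by the authors, which understates the spread within groups.

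Groups were apart at 57 of 116 member pairs (49.1%), compared to 48.5% of all pairs. Of these, 23 were higher and 34 lower in both detrained libraries; over all pairs 21.3% were higher and 27.2% lower. Per peak, without dividing by its length, 72 member pairs were apart (62.1%), compared to 53.4% of all pairs. Of these 25 were higher (21.6%) and 47 lower (40.5%), where 24.7% of all pairs were higher and 28.8% lower, and the median log2 ratio was -0.092, against -0.019 over all pairs. Normalized to the tags in listed peaks, 65 were apart (56.0%, with 33 higher and 32 lower), compared to 49.9% of all pairs (27.8% higher and 22.03% lower). The comparison of members with all pairs was not tested. No member pair was apart by at least 2-fold per kb, and 0.0757% of all pairs were. Per peak 2 of 116 were (1.72%), where 1.5% of all pairs were. Both were in BMP ligand genes: the peak 6.06 kb into Bmp6 (log2 ratio 1.18) and the one 66.4 kb into Bmp5 (-1.17). The detrained Bmp6 peak, 9.83 kb long with 1271 tags, also overlapped another control peak, 0.629 kb from the start with 341 tags. The Bmp6 ratio leaves out the tags of that control peak, so it does not show a gain over the whole region.

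By role, the counts per kb stand against the 21.3% higher and 27.2% lower of all pairs, and those per peak against 24.7% and 28.8%. Ligands had 3 pairs higher and 11 lower of 25, with a median log2 ratio of -0.13. Per peak 7 were higher and 11 lower. When any 1 library was left out, 5 to 6 were higher and 12 to 15 lower per kb. In those settings 28.8% to 38.7% of all pairs were higher and 35.9% to 45.5% lower. The lower pairs belonged to Tgfb2, Tgfb3, Bmp5, Bmp8a, Gdf1, Gdf9, Gdf15 and Inhbe. With only peaks at least 4-fold over input in both tables, 6 of 14 ligand pairs were lower and 3 higher, where 28.6% of all such pairs were lower and 21.8% higher. Receptors had 12 pairs higher and 14 lower of 48 (median -0.012), SMADs 6 and 6 of 27 (median -0.0083), LTBPs 2 and 1 of 10 and the remaining names 0 and 2 of 6. Per peak the receptors had 10 higher and 21 lower (median -0.21), the SMADs 4 and 10 (median -0.083), the LTBPs 3 and 3 and the remaining names 1 and 2. Among receptors Acvr1 was counted with the BMP receptors Bmpr1a, Bmpr1b and Bmpr2, and the activin receptors were Acvr1b, Acvr2a and Acvr2b. The BMP receptors had 2 pairs higher, 1 of Bmpr1b and 1 of Acvr1, and 0 lower of 11. The TGF-beta receptors had 5 and 7 of 20, and the activin receptors 5 and 7 of 17. Per peak these were 2 and 5 for the BMP receptors, 7 and 5 for the TGF-beta receptors (median -0.052) and 1 and 11 for the activin receptors (median -0.28). The median log2 ratio of the BMP receptors was 0.077 per kb and -0.21 per peak. Of their 11 peaks 9 were longer in control mice, and 0 pairs were higher in both detrained libraries on both scales.

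The ratio per kb went with the length at which a peak was called. Across member pairs the log2 ratio of density and that of length had a Spearman correlation of -0.497, and across all pairs it was -0.526; the pairs share libraries and peak calls, so these are descriptions. Of the 57 member pairs with groups apart per kb, 24 had the opposite sign per peak.

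The 5 pairs with groups apart and the highest ratios per kb show this. At Smad3, which relays TGF-beta signals, a peak at -23.2 kb (chr9:63779672-63782816) had 41.4 (C2), 43.4 (C3), 60.0 (Ex1) and 66.2 (Ex2). Both detrained libraries were well above both controls (log2 ratio 0.57, SD 0.078). The detrained peak was 1.72 kb long and the control peak 3.14 kb, and per peak the ratio was -0.30. At Smad6 a peak 23.4 kb into the gene (chr9:63997537-63999798) had 18.1, 15.8, 27.4 and 22.5 (0.55, SD 0.17), with -0.35 per peak. The sites at -432 and -677 kb from the Acvr2a start had log2 ratios of 0.50 and 0.43 per kb and of -0.23 and -0.54 per peak. Only the peak 13.1 kb into Tgfbr3 (chr5:107275631-107277473) was higher on both scales among these 5. It had 30.6, 22.1, 35.8 and 39.3 (0.53, SD 0.24), and 0.30 per peak.

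The 5 pairs with groups apart and the lowest ratios per kb kept their sign per peak at 4 sites. At Tgfbr1, the type I TGF-beta receptor, a peak 21.2 kb into the gene (chr4:47406516-47408270) had 56.0 (C2), 51.5 (C3), 26.8 (Ex1) and 33.0 (Ex2). The detrained libraries were far below the controls per kb (-0.85, SD 0.16), but the tags were 416 in control and 424 in detrained mice, in peaks of 1.75 and 3.28 kb, so that the ratio per peak was 0.050. At the site -733 kb from the Acvr2a start (chr2:48079210-48082398) density was 30.2, 38.6, 17.1 and 22.8 (-0.79, SD 0.27), with -0.48 per peak. A peak 44.2 kb into Tgfb2 (chr1:186661126-186662478) had 42.1, 40.6, 23.4 and 30.6 (-0.63, SD 0.20), with -0.48 per peak. The detrained libraries were the lower at both sites on either scale. The remaining sites were 94.2 kb from the Smad6 start (-0.61 per kb, -0.092 per peak) and 55.0 kb into Tgfbr2 (-0.56 and -0.13).

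**Figure D4:**
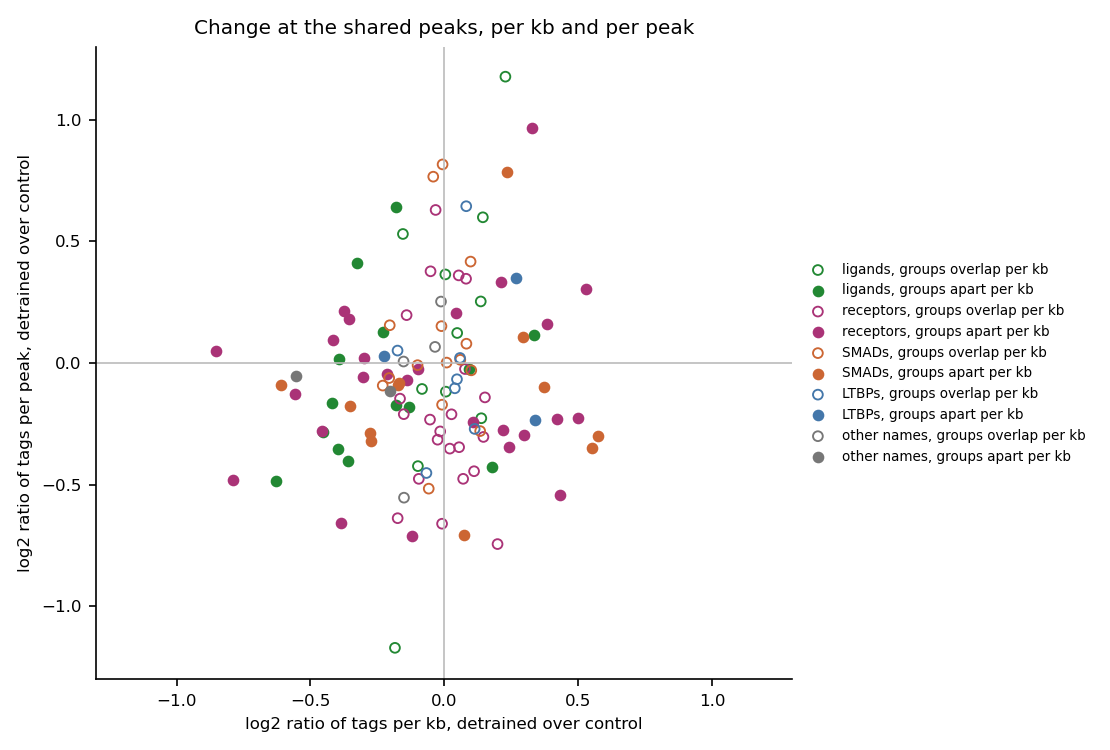
Log2 ratio of detrained over control in tags per peak (vertical axis) against that in tags per kb (horizontal axis) at the 116 shared member peaks, colored by role, with filled circles where groups were apart per kb. The points filled all 4 quadrants, and 24 of the 57 filled circles had opposite signs on the axes.

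Groups were apart in the same direction per kb and per peak at 20 member pairs (17.2%), compared to 16.0% of all pairs, with 6 higher (5.17%) and 14 lower (12.1%), where 6.37% of all pairs were higher and 9.6% lower. These pairs are named here after their values were seen. The higher ones were 3 intronic sites of Tgfbr3, at 13.1, 93.5 and 122 kb, and 1 site each of Tgfbr1, Smad1 and Ltbp4, with log2 ratios per kb of 0.043 to 0.53. The site 93.5 kb into Tgfbr3 had 27.9 (C2), 32.9 (C3), 37.6 (Ex1) and 38.5 (Ex2), and 208 tags in control and 397 in detrained mice. The peak 27.9 kb into Smad1, a BMP SMAD, had 23.6, 27.2, 31.8 and 27.9, and 433 and 728 tags. In both, the detrained libraries were above the controls, by a narrow margin at Smad1.

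The lower ones included 3 intronic sites of Smad3, 6 ligand sites (2 each of Tgfb2 and Bmp5, and Gdf1 and Gdf9), a distal site of Smad7, the start of Acvr2b, the promoter of Tgfbrap1, and 1 site each of Acvr2a and Tgfbr3. At Smad3 the site at 31.6 kb had 26.9, 28.0, 20.9 and 24.5, the site at 46.2 kb had 52.4, 45.7, 38.2 and 38.3, and the site at 53.5 kb had 59.1, 54.3, 50.6 and 50.2. At all 3 both detrained libraries lay below both controls, with log2 ratios of -0.28, -0.35 and -0.17. The start site and the upstream site of the same gene did not share that direction per kb, at 0.060 and 0.57, nor did the site at 10.3 kb, at 0.37. Per peak these were 0.013, -0.30 and -0.098. At Bmp5 the site at 63.5 kb had 37.7, 30.4, 24.1 and 27.5 (log2 ratio -0.40, SD 0.18). Gdf9, an oocyte growth factor, was named for a site 8.90 kb away with 39.3, 44.1, 32.8 and 32.1 (-0.36, SD 0.085).

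**Figure D5:**
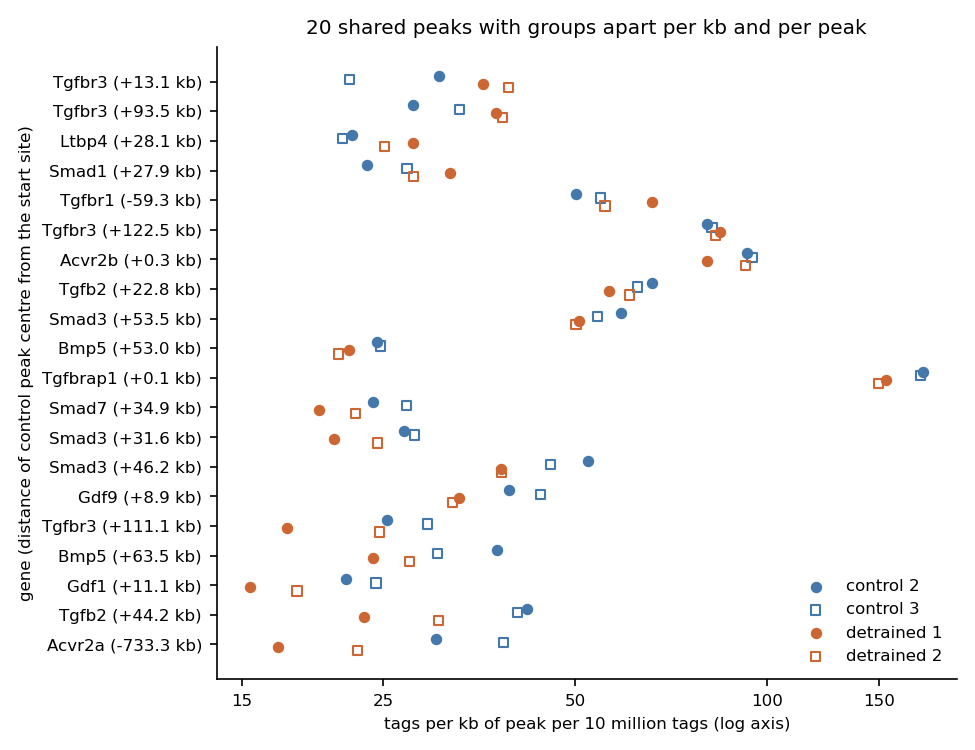
Density in each of the 4 libraries (horizontal log axis, tags per kb of peak per 10000000 tags; control in blue, detrained in orange) at the 20 shared peaks with groups apart in the same direction per kb and per peak, ordered by log2 ratio. The 6 at the top were higher and the 14 below them lower in both detrained libraries, and the gap was narrow at many, such as Tgfbr3 at 122 kb.

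For ligands, receptors and SMADs the pair of this set with the most control tags is shown as 300 bases at the center of its control peak, as examples of sites apart on both scales. Signal was measured over the whole control peaks of 2.36, 3.13 and 6.57 kb and not over these stretches. They lie in introns of Tgfb2 (22.8 kb from the start, lower), Tgfbr3 (122 kb, higher) and Smad3 (53.5 kb, lower). Capitals mark TGANTCA, which was found once, in Tgfbr3. In 300-base centers it was present at 7 of 116 member pairs (6.03%) and at 9.52% of all pairs.

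Tgfb2 (chr1:186683063-186683362, plus strand): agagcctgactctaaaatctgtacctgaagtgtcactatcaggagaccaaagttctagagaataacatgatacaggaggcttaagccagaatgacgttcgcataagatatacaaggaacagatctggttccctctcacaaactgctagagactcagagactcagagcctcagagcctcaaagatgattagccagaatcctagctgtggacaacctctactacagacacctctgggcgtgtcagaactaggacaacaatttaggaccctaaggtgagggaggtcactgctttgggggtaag
Tgfbr3 (chr5:107167027-107167326, plus strand): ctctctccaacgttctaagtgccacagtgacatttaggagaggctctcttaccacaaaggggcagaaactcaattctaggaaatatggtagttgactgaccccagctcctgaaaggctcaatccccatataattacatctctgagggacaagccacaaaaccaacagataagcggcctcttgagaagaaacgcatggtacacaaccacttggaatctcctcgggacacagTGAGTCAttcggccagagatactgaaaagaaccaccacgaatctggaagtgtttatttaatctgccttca
Smad3 (chr9:63704322-63704621, plus strand): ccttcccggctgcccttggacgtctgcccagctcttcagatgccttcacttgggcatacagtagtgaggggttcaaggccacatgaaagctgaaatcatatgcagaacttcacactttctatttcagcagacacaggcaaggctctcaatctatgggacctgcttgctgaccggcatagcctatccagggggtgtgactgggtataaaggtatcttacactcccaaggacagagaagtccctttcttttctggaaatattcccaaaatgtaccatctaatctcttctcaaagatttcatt

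Genes of the pathway outside the name rule were read in the same way. Of 53 listed names, which hold Ctgf and Hfe2 also under their newer symbols Ccn2 and Hjv, 46 had a peak in control and 44 in detrained mice, and at their 125 shared pairs 26 were higher and 30 lower per kb (44.8% apart, against 48.5% of all pairs), with a median log2 ratio of -0.028. Per peak 42 were higher and 25 lower, and the median was 0.085. Extracellular antagonists had 1 pair higher and 9 lower of 24 (4.17% and 37.5%), with a median of -0.14, and per peak 9 and 8 with a median of -0.0031. At the start of Twsg1, a BMP-binding protein, density was 100 (C2), 97.0 (C3), 84.3 (Ex1) and 79.9 (Ex2), lower in both detrained libraries (-0.27, SD 0.046) with 0.25 per peak. Other ligands and coreceptors had 4 pairs higher and 7 lower of 28, and 4 and 10 per peak. Mstn, which encodes myostatin, the brake on muscle mass, had 50.5, 58.3, 48.0 and 50.4 at 0.78 kb, where the detrained libraries were narrowly lower per kb (-0.14, SD 0.11), with -0.46 per peak. Intracellular regulators had 5 pairs higher and 6 lower of 33, and 12 and 4 per peak with a median of 0.041.

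Known targets of the pathway had 16 pairs higher and 8 lower of 40 per kb, where 21.3% of all pairs were higher and 27.2% lower, with a median of 0.11. Per peak 17 were higher and 3 lower, where 24.7% and 28.8% of all pairs were, with a median of 0.16. Neither difference from all pairs was tested. Atoh8, a BMP-responsive transcription factor, had 5 higher and 1 lower of 9, and Col1a2 had 3 higher and 1 lower of 7. Of the BMP targets Id1, Id2 and Id3, Id3 had 0 higher and 3 lower of 4 (median -0.18). Id1 had 0 higher and 0 lower of 2 (median 0.099), and Id2 had 1 and 0 of 2 (median 0.14). Markers of fibroblasts also had more pairs higher than lower, as did those of endothelium with 4 higher and 2 lower of 12. All 5 fibroblast markers had peaks in each table, their 14 shared pairs had 6 higher and 2 lower with a median of 0.13 (10 and 1 per peak, median 0.23), and their summed signal was 2572 tags per 10000000 in control and 3123 in detrained mice, over peaks covering 70.6 and 81.3 kb, or 36.4 and 38.4 per kb. Signal per kb of called peaks was higher in detrained mice in 4 of 10 cell type lists and lower in 6, and as the covered length differed between the tables, the sums alone are not compared between lists. Col1a1 is in both lists and Dcn is listed among the antagonists, and the part of fibroblasts in the target values was not tested.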

How the data were processed

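Reads had been aligned by the authors to mm10 (Bowtie 1.2, per the submitters' processing notes), and HOMER peaks had been called once per group, from both H3K27ac libraries together, with the input as background. The deposited signal per peak is the pooled tags of both libraries per 10000000 total tags, and the deposited log2 values per library were normalized and shrunken by the authors within each table. Their deposited log2 fold over input and p-value per peak were used only for the stricter filter (at least 4-fold, adjusted p under 0.001).

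Pooled tags of a peak were shared between its libraries by their totals and 2 to the power of the log2 values. Density was tags plus 0.5 per kb per 10000000 tags. Pairs overlapped one to one by at least 50% of each peak. SD is that within groups, pooled. C2 and C3 matched the control group but no numbered label. Members and lists were chosen with earlier results of these data known.

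The named pairs were the strongest 2 genes per role, the promoters of SMADs and receptors, the 5 largest increases and decreases among pairs apart, the 3 strongest peaks without overlap, the 3 longest peaks per table, and the genes with most peaks. Alternatives covered length, overlap, normalization, pseudocount, peak filter and leaving out each library. The pairing and measures were tested on simulated data. Sequences are from RefSeq and GRCm38.p6. The scripts ran in Python 3.11.15 with pandas 2.3.3, numpy 2.4.6, matplotlib 3.10.9 and scipy 1.17.1.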

Additional observations from a re-analysis of the deposited data

How the results depend on the processing

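The median log2 ratio over member pairs, -0.020, moved by more than the SD of the library means over these pairs, 0.025, under several alternatives: it was -0.100 with the strongest pair of each gene, -0.092 per peak, 0.030 with normalization to tags in listed peaks, 0.0057 when centred on all pairs, -0.086 without control 2 and -0.046 without detrained 1. It moved by less without control 3 (-0.019) or detrained 2 (-0.017) and with the peaks of each gene summed (-0.042). The median of the related genes, -0.028, was 0.085 per peak, 0.022 with listed-peak tags, 6.0e-05 with 80% overlap, and -0.058 (without detrained 1) to 0.0062 (without detrained 2) when each library was left out. Its sign thus depended on the scaling in both lists. Groups were apart at 19 of 46 member pairs (41.3%) with at least 80% overlap, compared to 40.2% of all pairs, and at 46 of 84 (54.8%) with stricter peaks, compared to 50.4%. The alternatives for related genes, for shares of pairs and for counts by role were chosen after seeing the data. Lower ligand pairs were 6 of 14 with stricter peaks and 4 of 10 with 80% overlap, where 28.6% and 23.7% of all pairs were lower. Leaving out 1 library loosens the criterion by construction: 82 to 91 member pairs were then apart (91 without control 3, 89 without control 2), which is 70.7% to 78.4% of them, against 72.2% to 76.0% of all pairs. Lower receptor pairs became 25 of 48 without control 2, where 45.5% of all pairs were lower. Higher receptor pairs became 25 of 48 without control 3, where 38.7% of all pairs were higher. Lower SMAD pairs became 16 of 27 without detrained 1, where 43.4% of all pairs were lower. Higher SMAD pairs became 14 of 27 without detrained 2, where 37.2% of all pairs were higher. At least 2-fold were 2 pairs per peak and 0 to 1 when a library was left out. Of the named pairs 16 were apart, 5 of 9 with 80% overlap, and 18 to 20 of 22 without a library. As 10 were named for being apart, these counts follow largely from the naming rule. Per peak, log2 ratios reversed at Smad3 (-23.2 kb, -0.30), Smad6 (23.4 kb, -0.35), Acvr2a (-677 kb, -0.54, and -432 kb, -0.23), Tgfb2 (2.48 kb, -0.024), Tgfb3 (0.13) and Tgfbr1 (21.2 kb, 0.050), where length is the only difference between the scales.

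Stricter peaks left 112 control and 109 detrained members, with a promoter share of 8.04% in control, and the genes in 1 table alone became Gdf1, Gdf15 and Bmp2. The median percentile of members was 42.8 and 43.5 per kb, and 41.5 and 50.8 per peak. Control and detrained libraries came from different mice, randomly assigned to cages with or without wheels, so the design held no pairs of animals. The sample labels number the replicates alike in both groups. No paired analysis was possible by number, because columns C2 and C3 match no numbered label and cannot be linked to Ex1 and Ex2. With 2 libraries per group and tags below 100 at many peaks, small differences could have been missed. The smallest difference that could be detected was not measured.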
